A study of Rattus norvegicus with 54 samples.

Results

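The ADAM and ADAMTS proteases are 2 related families of zinc metalloproteases, and 10 of their genes were followed across the left ventricle after myocardial infarction (MI). These were Adam8, Adam10, Adam12, Adam17, Adam19, Adamts1, Adamts2, Adamts4, Adamts5 and Adamts12. Each gene was found by its symbol in all 54 count tables, which list 40319 genes. The study asked how a sheet of cells laid over the infarct changes the heart tissue. Poly(A) RNA came from female athymic rats of the F344/NJcl-rnu/rnu strain, which lack a thymus, operated on at 8 weeks of age. Sham animals had surgery without ligation and no treatment. MI animals had the left anterior descending coronary artery tied off and received nothing further. MI+Cell Sheet animals had the same ligation and were given a bi-level sheet of human endothelial progenitor cells and human smooth muscle cells, the latter made from bone marrow mesenchymal stem cells. Hearts were taken 1 week after surgery, and each of the 18 hearts gave a library from the infarct, the border and the remote zone, 6 libraries in each of 9 groups. The zones are the anterior wall, the lateral wall and the septum, so that in sham hearts, which have no infarct, they name the matching regions. The labels number the libraries as technical replicates while the study describes separate animals, so p-values measure the spread between these libraries, which may be technical in part.

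ADAMs are membrane-anchored proteases that release the outer part of other membrane proteins, such as growth factors, cytokines and adhesion molecules, a step called shedding. ADAMTS proteases are secreted, carry thrombospondin repeats and act on the extracellular matrix, where they trim procollagens or cut large proteoglycans such as versican. Both families are made as inactive precursors, many of which furin-like convertases activate, and tissue inhibitors of metalloproteinases (TIMPs) restrain these proteases. In the heart they have been studied in scar formation, matrix turnover and inflammation.

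Levels below are in CPM, counts scaled to a common library size with TMM factors, which correct for composition. They serve to compare a gene between libraries and not different genes, since transcript length is not corrected. Libraries held 12699204 to 23397754 counts on genes. Fold changes come from edgeR's quasi-likelihood F test of 6 against 6 libraries within a zone, and a gene was called when its p, adjusted over all genes tested by Benjamini-Hochberg, was under 0.05. In whole tissue, more or fewer cells of a type and more or less RNA per cell cannot be told apart.

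Cardiomyocyte markers were abundant in sham libraries, with a median summed level of 60880 CPM in the infarct zone, and fell in MI, where all 8 were called lower in the infarct and the border zone. The 6 myofibroblast markers were all called higher in the MI infarct zone (median summed level 3050 against 125 CPM in sham). Animals stood apart in both the sham and the cell sheet group. Sham replicate 5 held 315, 393 and 261 CPM of 5 T cell markers in its infarct, border and remote libraries, where the other sham libraries reached at most 11.7 CPM. MI and cell sheet libraries reached at most 109.5 CPM, and the study states that athymic animals make no mature T cells. Why sham replicate 5 held these markers was not tested. Its macrophage and myofibroblast markers were also the highest of the sham group. The remote library of MI+Cell Sheet replicate 1 held 4005 CPM of myofibroblast markers, against 181 to 528 CPM in the other 5. Results whose call moved when either animal was left out are given with and without it. Changes of direction are given as ranges in the last section. Other sizes also moved without these animals and are given only in part. For example, the Adamts4 log2 fold change of MI against sham in the remote zone was 1.49 with all libraries and 1.87 without sham replicate 5. Reads of the human cells of the sheet that match rat genes would be counted with the rat genes, and their share was not tested.

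In the infarct zone, 5 of the 10 members rose in MI against sham and 1 fell. Of all genes tested there, 22.7% were called higher and 27.2% lower, 49.9% in all. In the border zone 5 members rose and 1 fell, against 18.4% and 23.2% of all genes, 41.7% in all. In the remote zone 4 rose and 1 fell, against 11.7% and 14.2%, 25.8% in all. The members' median log2 fold change was 0.54, 0.59 and 0.32 in the infarct, border and remote zone, where the median of all genes was -0.02, -0.02 and -0.04. Adam12, Adamts2 and Adamts4 were called higher in all 3 zones, and Adam19 was called lower in all 3. Members whose MI libraries all lay above sham numbered 3 in each zone, beside 8.74%, 6.73% and 3.89% of all genes in the infarct, border and remote zone. Members whose MI libraries all lay below sham numbered 0, 0 and 1, beside 5.39%, 4.95% and 4.41%.

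Cell sheet libraries were next compared with untreated MI. In the border zone Adam19 and Adamts12 were higher, 2 of 10 beside 8.47% of all genes called higher and 9.48% lower, 18% in all. Only Adam19 was called in the remote zone, beside 10.3% of all genes called higher and 6.79% lower, 17.1% in all. In the infarct zone edgeR called no member and no gene (0%). There 3 members had an unadjusted p under 0.05 (Adam12, Adam19 and Adamts12), as did 1341 of 16196 genes, and DESeq2 called 1 member and 85 genes. Against sham, the cell sheet libraries had 6 higher members in the infarct and 5 in the border zone, with none lower. Of all genes, 28.6% were called higher and 29.2% lower in the infarct zone, 57.9% in all, and 20.4% and 23.2% in the border zone, 43.6% in all. Without overlap, 4 and 3 members were higher, beside 11.7% and 9.55% of all genes higher and 9.22% and 10.1% lower. No member was called against sham in the remote zone, where 0.0066% of all genes were. Of the members, 2 had an unadjusted p under 0.05 there, Adam12 and Adamts1, and DESeq2 called 1, Adam12. Neither count is set against all genes under the same rule. The 3 comparisons share libraries, so their values are given side by side and not set against each other.

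**Figure D1:**
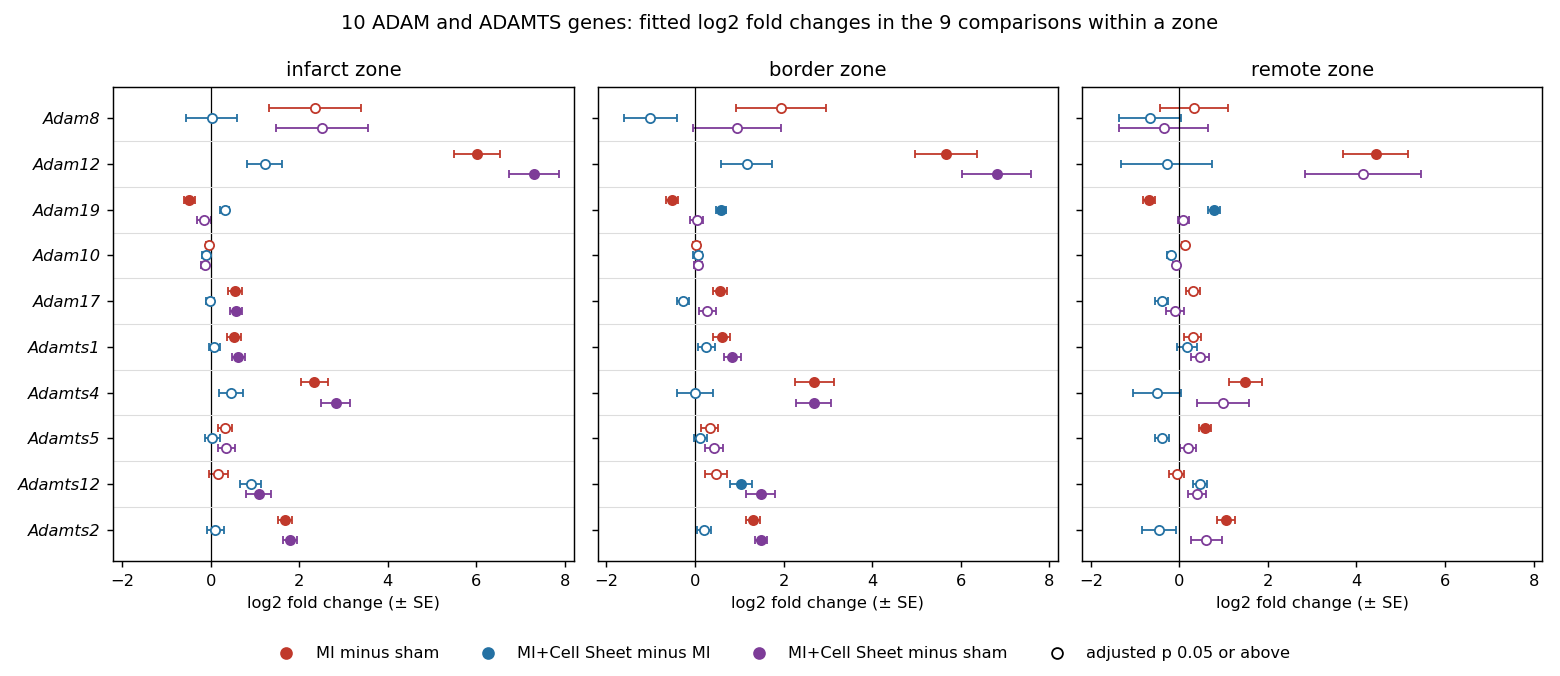
Fitted log2 fold changes (horizontal axis, points with standard errors) of the 10 genes in the infarct, border and remote zone, for MI minus sham, MI+Cell Sheet minus MI and MI+Cell Sheet minus sham, with filled points where the adjusted p was under 0.05. For MI minus sham, Adam12 lay farthest to the right in every zone (6.02, 5.67 and 4.43), while Adam19 lay left of 0 for MI minus sham and right of 0 for MI+Cell Sheet minus MI.

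Adam12, a membrane-bound ADAM that is low in resting adult tissue and is made by activated mesenchymal cells, had the largest range of the 10 members. Its highest group mean was 169 times its lowest. In sham hearts it lay between 0.385 and 3.15 CPM (median 1.07) in the infarct zone, between 0.248 and 4.56 (median 1.496) in the border zone and between 0.0671 and 3.43 (median 0.962) in the remote zone. Sham libraries were thus low in every zone. In MI hearts it ran from 34.8 to 148 CPM (median 82.8) in the infarct zone, from 36.4 to 230 CPM (median 57.8) in the border zone and from 5.31 to 45.1 CPM (median 37.2) in the remote zone. No MI library overlapped the sham libraries of its zone. The log2 fold change of MI against sham was 6.02 ± 0.52 (SE, adjusted p = 3.64e-05) in the infarct zone, 5.67 ± 0.70 (adjusted p = 0.000274) in the border zone and 4.43 ± 0.73 (adjusted p = 0.00167) in the remote zone. Without sham replicate 5 the remote value was 5.03 (adjusted p = 5.70e-05).

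With the cell sheet, Adam12 ran from 73.5 to 316 CPM (median 229) in the infarct zone and from 40.2 to 405 CPM (median 188) in the border zone. Both ranges lay above all sham libraries and overlapped MI. The log2 fold change against MI was 1.22 ± 0.39 (unadjusted p = 0.00827, adjusted p = 0.480) in the infarct zone and 1.17 ± 0.58 (adjusted p = 0.186) in the border zone, neither past the threshold. The remote cell sheet libraries spread from 0.643 to 115 CPM with a median of 2.501 CPM. Of the 6, 1 library, replicate 1, stood at 115 CPM and the others between 0.643 and 21.0 CPM, so the remote group overlapped both sham and MI. The fold change against MI there was -0.29 ± 1.03 (adjusted p = 0.865) and, without replicate 1, -2.37 (adjusted p = 0.0274). Against sham it was 4.16 ± 1.31 (adjusted p = 0.359) with all 6 libraries and 2.04 (adjusted p = 0.499) without replicate 1.

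Adamts2, the protease that removes the amino-terminal propeptide of procollagens so that collagen fibrils can form, was also higher in MI in every zone. Sham libraries held 85.2 to 118 CPM (median 95.5) in the infarct zone, 85.0 to 128 CPM (median 104) in the border zone and 87.2 to 99.5 CPM (median 93.9) in the remote zone. MI libraries held 186 to 380 CPM (median 333), 170 to 319 CPM (median 268) and 115 to 262 CPM (median 202) in the same order. Every MI library lay above every sham library of its zone, and MI replicate 1 was the lowest of its group in all 3. This was a log2 fold change of 1.67 ± 0.16 (adjusted p = 4.36e-05) in the infarct zone, 1.31 ± 0.15 (adjusted p = 0.000196) in the border zone and 1.05 ± 0.20 (adjusted p = 0.00286) in the remote zone. The rise was larger in the infarct than in the remote zone by 0.67 ± 0.16 (interaction, adjusted p = 0.00840). With the cell sheet Adamts2 held 223 to 444 CPM in the infarct zone and 255 to 367 CPM in the border zone, both above all sham libraries. It was not called against MI, with 0.11 ± 0.19 (adjusted p = 0.906), 0.20 ± 0.15 (adjusted p = 0.386) and -0.45 ± 0.38 (adjusted p = 0.413) in the infarct, border and remote zone. The remote library of replicate 1 held 334 CPM and the other 5 held 70.7 to 172 CPM, and without it the remote difference was -0.91 (adjusted p = 0.0193).

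Adamts4, an aggrecanase that also cuts versican, rose in MI in all 3 zones. Sham libraries held 2.11 to 6.75 CPM (median 4.17), 2.39 to 8.42 CPM (median 3.14) and 2.38 to 8.34 CPM (median 3.19) in the infarct, border and remote zone. MI libraries held 14.1 to 30.6 CPM (median 22.2), 10.3 to 50.3 CPM (median 21.9) and 7.19 to 22.2 CPM (median 8.59). The groups were apart in the infarct and the border zone and overlapped in the remote zone, where sham replicate 5 at 8.34 CPM lay within the MI range. MI differed from sham by a log2 fold change of 2.34 ± 0.31 (adjusted p = 0.000241), 2.70 ± 0.44 (adjusted p = 0.00119) and 1.49 ± 0.37 (adjusted p = 0.0115). Cell sheet libraries held 17.6 to 51.4 CPM in the infarct zone and 12.6 to 45.1 CPM in the border zone, and differed from MI by 0.45 ± 0.27 (adjusted p = 0.692) and 0.00 ± 0.41 (adjusted p = 0.998). Of the 6 remote cell sheet libraries, 5 held 1.71 to 8.22 CPM and replicate 1 held 24.5 CPM, a difference from MI of -0.50 ± 0.54 (adjusted p = 0.535), and of -1.29 (adjusted p = 0.0166) without replicate 1.

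**Figure D2:**
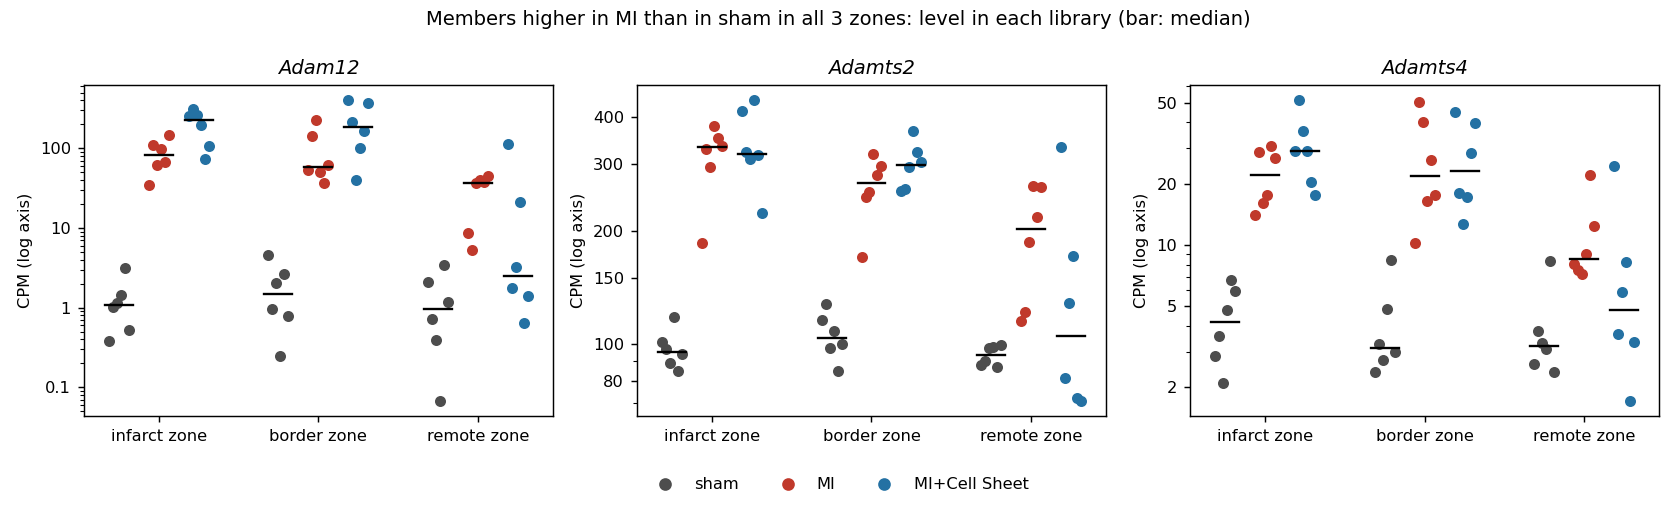
Level of Adam12, Adamts2 and Adamts4 in each of the 54 libraries, in CPM on a log axis, by zone and treatment, with the group median as a bar. MI libraries lie above all sham libraries in every zone for Adam12 and Adamts2 and in the infarct and border zone for Adamts4, and in the remote zone a single cell sheet library, replicate 1, lies above the other 5.

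The promoters of these 3 genes are shown because the genes rose together after infarction, and that of Adam19 because it fell. Each is the 250 bases before the annotated start in the RefSeq rat table (build GRCr8, not the mRatBN7.2 assembly to which the reads were aligned), written 5′ to 3′ on the gene's strand. The table held 9 of the 10 members. Adam12 lies on the minus strand at chr1:198443681-198443930, Adamts2 on the plus strand at chr10:35421780-35422029, Adamts4 on the plus strand at chr13:86202761-86203010 and Adam19 on the plus strand at chr10:30992511-30992760. Capitals mark GGGCGG (the Sp1 box, on either strand) and TGANTCA (the AP-1 site, the same on both strands).
Adam12: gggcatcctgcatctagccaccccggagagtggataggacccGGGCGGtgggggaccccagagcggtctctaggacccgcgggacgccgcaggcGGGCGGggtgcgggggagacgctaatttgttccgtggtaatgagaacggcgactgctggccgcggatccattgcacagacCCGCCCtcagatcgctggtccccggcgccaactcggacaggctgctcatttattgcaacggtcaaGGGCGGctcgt
Adamts2: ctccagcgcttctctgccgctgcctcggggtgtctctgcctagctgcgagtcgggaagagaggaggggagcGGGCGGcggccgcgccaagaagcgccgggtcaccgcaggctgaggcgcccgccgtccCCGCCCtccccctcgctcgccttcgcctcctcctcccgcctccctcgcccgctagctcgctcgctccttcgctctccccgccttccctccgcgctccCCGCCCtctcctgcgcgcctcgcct
Adamts4: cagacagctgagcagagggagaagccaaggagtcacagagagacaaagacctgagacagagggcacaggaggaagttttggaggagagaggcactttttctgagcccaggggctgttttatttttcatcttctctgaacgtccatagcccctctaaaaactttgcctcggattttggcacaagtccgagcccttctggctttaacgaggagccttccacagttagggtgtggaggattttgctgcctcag
Adam19: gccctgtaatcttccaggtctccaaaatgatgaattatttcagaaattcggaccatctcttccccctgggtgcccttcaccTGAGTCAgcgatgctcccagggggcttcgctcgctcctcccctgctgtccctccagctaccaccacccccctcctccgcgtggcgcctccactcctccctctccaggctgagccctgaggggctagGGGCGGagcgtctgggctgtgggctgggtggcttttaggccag
The Sp1 box was found in 7 of the 9 promoters and in 30.5% of all 33469 promoters of the same length. GC content was 66.8%, 75.6%, 51.2% and 62.8% in the 4 promoters shown, against a median of 51.2% over all. TGANTCA was found in 1 of the 9, that of Adam19, and in 6.34% of all promoters. The letters GGAATG (the TEAD site, either strand) and the CArG box were found in 0 of the 9, and in 12.1% and 1.5% of all promoters. A match describes these letters only.

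Adam19, a membrane-bound ADAM with a role in heart development and in shedding of neuregulin, moved the other way. In the remote zone sham libraries held 222 to 321 CPM (median 297) and MI libraries 135 to 211 CPM (median 175). The groups did not overlap. In the infarct zone sham held 171 to 277 CPM (median 209) and MI 150 to 175 CPM (median 152), and in the border zone sham held 161 to 266 CPM (median 208) and MI 123 to 168 CPM (median 148). These ranges met at their edges. The lowest sham library was replicate 5 in all 3 zones, with 171, 161 and 222 CPM. The log2 fold change of MI against sham was -0.48 ± 0.13 (adjusted p = 0.00830), -0.52 ± 0.13 (adjusted p = 0.00968) and -0.69 ± 0.14 (adjusted p = 0.00362) in the infarct, border and remote zone. Without sham replicate 5 it was -0.54, -0.59 and -0.75. Scaling by library size alone gave -0.21 (adjusted p = 0.145) in the infarct zone and kept the calls in the other 2 zones. Under that scaling the median log2 fold change of all genes lay between -0.07 and 0.28 over the comparisons.

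With the cell sheet, Adam19 held 183 to 262 CPM (median 219) in the border zone and 238 to 357 CPM (median 304) in the remote zone. In both zones every cell sheet library lay above every MI library, where 4.26% and 3.14% of all genes were higher without overlap and 5.38% and 1.83% lower. The log2 fold change against MI was 0.59 ± 0.11 (adjusted p = 0.00506) in the border zone and 0.78 ± 0.14 (adjusted p = 0.00756) in the remote zone. In the infarct zone it held 157 to 231 CPM (median 199), a difference of 0.32 ± 0.10 (unadjusted p = 0.00752, adjusted p = 0.475) with overlapping ranges. Against sham the cell sheet libraries differed by -0.15 ± 0.15 (adjusted p = 0.410), 0.04 ± 0.14 (adjusted p = 0.829) and 0.08 ± 0.12 (adjusted p = 0.879) in the infarct, border and remote zone. A p that misses the threshold does not show that the groups were alike.

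Some marker lists also differed between the cell sheet and MI libraries of these zones. The summed level of 6 mural cell markers (pericytes and smooth muscle) was 850 to 1004 CPM with the cell sheet and 363 to 512 CPM in MI in the border zone, with 5 of the 6 called higher. In the remote zone it was 871 to 1085 against 446 to 619 CPM, with 4 of 6 called higher and none of the 6 at 0. Cardiomyocyte markers in the remote zone had a median summed level of 58220 CPM (24830 to 72450) with the cell sheet and 35100 CPM (28530 to 47010) in MI, with 2 of 8 called higher. In the border zone the cardiomyocyte medians were 22280 CPM with the cell sheet and 20470 CPM in MI. Other lists had lower medians with the cell sheet in the remote zone, with overlapping ranges. Myofibroblast markers were at 343 CPM (181 to 4005) against 1300 CPM (323 to 2190) in MI. Macrophage markers were at 270 CPM (244 to 846) against 687 CPM (447 to 945). The part of these lists in the Adam19 difference was not tested.

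**Figure D3:**
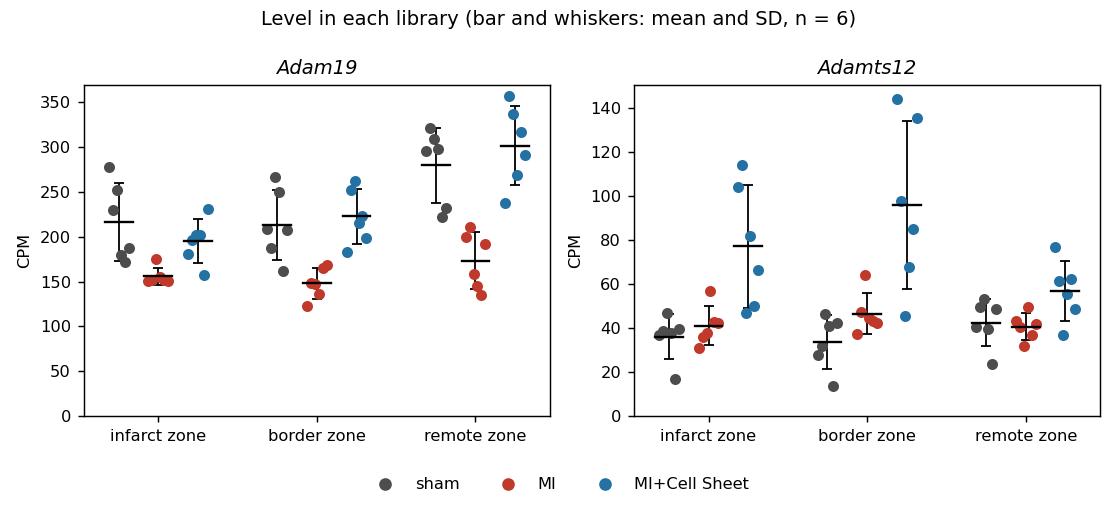
Level of Adam19 and Adamts12 in each library, in CPM on a linear axis from 0, by zone and treatment, with the mean and SD of 6 libraries. Adam19 is lower in MI than in sham in each zone and higher with the cell sheet in the border and remote zone, where the cell sheet and MI points do not overlap, and Adamts12 is highest with the cell sheet in the border zone (mean 96.0 CPM).

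Adamts12, a secreted protease that cleaves cartilage oligomeric matrix protein, differed between the cell sheet and MI libraries of the border zone. MI held 37.2 to 64.2 CPM (median 44.0) there and the cell sheet group 45.6 to 144 CPM (median 91.4). Of the 6 cell sheet libraries, 5 lay above all MI libraries and replicate 3, at 45.6 CPM, lay within them. The cell sheet libraries were higher by 1.05 ± 0.25 (adjusted p = 0.0138). In the infarct zone the ranges were 31.0 to 56.7 CPM (median 40.2) in MI and 46.7 to 114 CPM (median 74.0) with the cell sheet. The difference of 0.90 ± 0.23 had an adjusted p of 0.472 in edgeR and 0.0457 in DESeq2. In the remote zone it was 0.47 ± 0.16 (adjusted p = 0.0581), and 0.57 (adjusted p = 0.0315) without MI+Cell Sheet replicate 3.

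Against sham the cell sheet libraries were higher by 1.09 ± 0.28 (adjusted p = 0.00710) in the infarct zone and 1.49 ± 0.33 (adjusted p = 0.00357) in the border zone. By edgeR untreated MI was not called against sham in any zone, with 0.18 ± 0.21 (adjusted p = 0.496), 0.47 ± 0.25 (adjusted p = 0.146) and -0.06 ± 0.17 (adjusted p = 0.823). Library-size scaling called the border value, at 0.68 (adjusted p = 0.0379). Sham replicate 5 was the lowest sham library in all 3 zones, at 16.8, 13.6 and 23.7 CPM. Adipocyte markers reached 109 to 529 CPM in the border libraries of cell sheet replicates 1, 2, 5 and 6 and were 5.03 and 0.243 CPM in replicates 4 and 3. The order of Adamts12 in the same 6 libraries was 144, 136, 97.7, 85.1, 68.0 and 45.6 CPM for replicates 1, 6, 2, 5, 4 and 3. Macrophage markers had the same order, at 2644, 1790, 1656, 1332, 794 and 508.5 CPM. Cardiomyocyte markers were lowest in replicate 1 (490.8 CPM) and highest in replicate 3 (28360 CPM). Myofibroblast markers had another order, highest in replicate 6 (5501 CPM) and lowest in replicate 2 (1377 CPM). The part of any of these lists in the Adamts12 levels was not tested.

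Adam8, an ADAM of myeloid cells, varied widely in sham hearts, where replicate 5 stood apart. That animal held 44.4, 45.8 and 32.6 CPM in its infarct, border and remote libraries, while the other 5 sham animals held 0.754 to 1.92, 0.829 to 2.60 and 1.28 to 2.94 CPM. MI libraries held 8.52 to 84.6 CPM (median 34.0), 8.03 to 90.7 CPM (median 29.5) and 4.40 to 13.6 CPM (median 9.18). With all libraries MI differed from sham by 2.36 ± 1.05 (adjusted p = 0.0777), 1.95 ± 1.02 (adjusted p = 0.140) and 0.33 ± 0.77 (adjusted p = 0.785). Without sham replicate 5 the values were 5.15 (adjusted p = 4.70e-05), 4.47 (adjusted p = 0.000156) and 2.14 (adjusted p = 0.000208), and no MI library overlapped the remaining 5 sham libraries. DESeq2 called the infarct difference with all 6 sham libraries kept, at 2.40 (adjusted p = 0.0208), and not the border or the remote one (adjusted p = 0.0657 and 0.796). Sham replicate 5 lay above every MI library of the remote zone. Leaving out MI replicate 1, at 8.52 CPM, also brought a call in the infarct zone. Macrophage markers of sham replicate 5 summed to 1805 CPM in the infarct zone, within the MI range of 950 to 1844 CPM, and their part in its Adam8 level was not tested.

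The cell sheet libraries held 7.98 to 79.99 CPM (median 52.8) of Adam8 in the infarct zone, 4.31 to 39.3 CPM (median 11.1) in the border zone and 1.21 to 24.2 CPM (median 2.03) in the remote zone. Against MI the differences were 0.02 ± 0.58 (adjusted p = 0.995), -1.01 ± 0.60 (adjusted p = 0.272) and -0.67 ± 0.70 (adjusted p = 0.514). In the remote zone replicate 1 held 24.2 CPM and the other 5 held 1.21 to 3.01 CPM, all below the lowest MI library at 4.40 CPM. Without it the remote difference was -2.21 (adjusted p = 0.000567). Against sham the cell sheet libraries differed by 2.51 ± 1.04 (adjusted p = 0.0549), 0.94 ± 0.99 (adjusted p = 0.452) and -0.35 ± 1.00 (adjusted p = 0.948), and without sham replicate 5 by 5.17 (adjusted p = 4.98e-05), 3.42 (adjusted p = 0.000440) and 1.48 (adjusted p = 0.386). With all libraries DESeq2 called the infarct difference, at 2.45 (adjusted p = 0.0174). Leaving out MI+Cell Sheet replicate 6 also brought a call in the infarct zone.

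Adam17, the sheddase of tumour necrosis factor and of several epidermal growth factor receptor ligands, rose in MI in the infarct and the border zone. The 5 sham animals other than replicate 5 held 75.8 to 86.6 CPM in the infarct zone, 78.3 to 89.3 CPM in the border zone and 83.2 to 90.7 CPM in the remote zone, and replicate 5 held 142, 158 and 156 CPM. MI libraries held 120 to 155 CPM (median 137), 127 to 164 CPM (median 137) and 111 to 139 CPM (median 116). Sham replicate 5 was thus within the MI range in the infarct and border zone and above it in the remote zone, and the other 5 lay below every MI library. The log2 fold change was 0.55 ± 0.15 (adjusted p = 0.00943), 0.56 ± 0.17 (adjusted p = 0.0193) and 0.31 ± 0.16 (adjusted p = 0.163), and 0.72, 0.76 and 0.49 (adjusted p = 0.000239) without replicate 5. Against MI, the cell sheet libraries differed by -0.01 ± 0.10 (adjusted p = 0.981), -0.27 ± 0.13 (adjusted p = 0.189) and -0.40 ± 0.15 (adjusted p = 0.0819), and by -0.53 (adjusted p = 0.00397) in the remote zone without MI+Cell Sheet replicate 1. Against sham they were higher by 0.57 ± 0.14 (adjusted p = 0.00425) in the infarct zone. Border libraries differed by 0.28 ± 0.19 (adjusted p = 0.252), and 0.46 (adjusted p = 0.0127) without sham replicate 5.

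**Figure D4:**
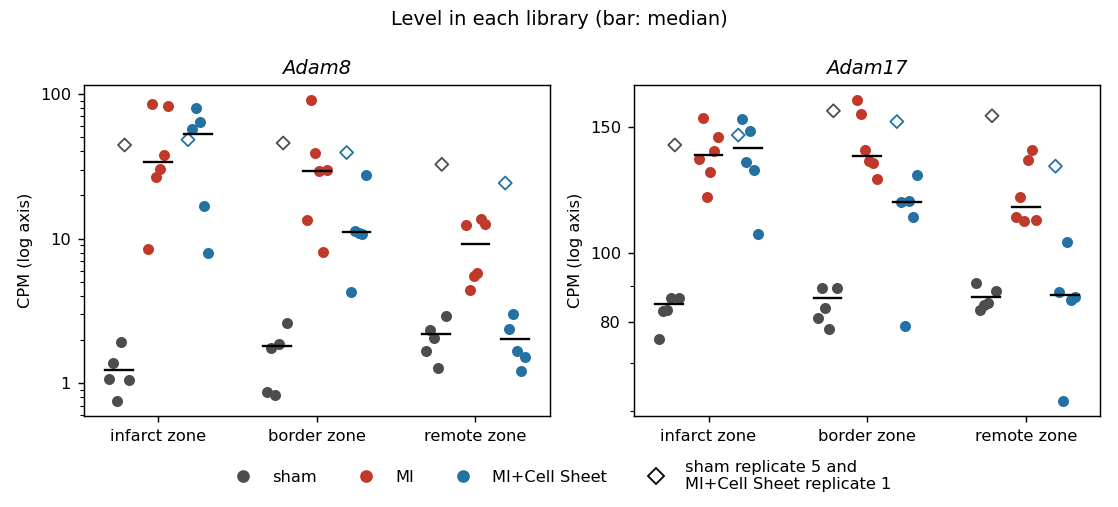
Level of Adam8 and Adam17 in each library, in CPM on a log axis, by zone and treatment, with the group median as a bar and open diamonds for sham replicate 5 and MI+Cell Sheet replicate 1. The sham diamonds (44.4, 45.8 and 32.6 CPM for Adam8) lie within the range of the MI points in the infarct and border zone and above it in the remote zone, and the other 5 sham points of each zone lie below all MI points.

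Adam10, the broadly expressed sheddase of Notch receptors and cadherins, varied least. Its group means ran from 93.7 to 118 CPM, a ratio of 1.25, and the coefficient of variation within a group was at most 13.1%. By edgeR it was not called in any of the 9 comparisons within a zone, where its log2 fold changes ran from -0.19 to 0.12. DESeq2 called 2 of them, MI+Cell Sheet against sham in the infarct zone (-0.18, adjusted p = 0.0328) and MI+Cell Sheet against MI in the remote zone (-0.20, adjusted p = 0.0310). Without MI+Cell Sheet replicate 3 edgeR also called the first (-0.21, adjusted p = 0.0499). Library-size scaling turned its MI against sham value in the infarct zone from -0.04 ± 0.07 to 0.22 (adjusted p = 0.0448). The same scaling called it higher in MI than in sham in the border and remote zone (0.22 and 0.26, adjusted p = 0.0357 and 0.0265), higher with the cell sheet than in sham in the border zone (0.35, adjusted p = 0.0231) and lower with the cell sheet than in MI in the remote zone (-0.27, adjusted p = 0.0483). No direction is given for it against sham.

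Adamts1, an early-response protease that cuts versican and aggrecan, rose modestly. Sham held 39.8 to 66.1 CPM (median 51.9) in the infarct zone and 34.98 to 72.6 CPM (median 53.1) in the border zone. MI held 59.7 to 102 CPM (median 71.2) and 52.1 to 104 CPM (median 84.8), overlapping sham in both. MI was higher by 0.53 ± 0.16 (adjusted p = 0.0164) in the infarct zone and 0.61 ± 0.20 (adjusted p = 0.0264) in the border zone. The border call was lost without sham replicate 2, MI replicate 2, MI replicate 3 or MI replicate 5, with an adjusted p of at most 0.0562. The cell sheet libraries were higher than sham by 0.62 ± 0.15 (adjusted p = 0.00427) in the infarct zone, without overlap (75.5 to 103 CPM), and by 0.84 ± 0.19 (adjusted p = 0.00385) in the border zone. Against MI they differed by 0.09 ± 0.13, 0.26 ± 0.18 and 0.17 ± 0.22 in the infarct, border and remote zone (adjusted p = 0.892, 0.359 and 0.608).

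Adamts5, the other main aggrecanase, was called by edgeR in a single comparison within a zone, MI against sham in the remote zone. Sham held 20.7 to 37.8 CPM (median 35.8) there and MI 40.1 to 58.9 CPM (median 49.6), without overlap, and the log2 fold change was 0.58 ± 0.14 (adjusted p = 0.0110). In the infarct and border zone it was 0.32 ± 0.16 (adjusted p = 0.109) and 0.33 ± 0.19 (adjusted p = 0.173). Library-size scaling called both, at 0.59 (adjusted p = 0.00476) and 0.53 (adjusted p = 0.0246), and also called MI+Cell Sheet against sham in these zones, at 0.65 (adjusted p = 0.00683) in place of 0.36 ± 0.19 and 0.72 (adjusted p = 0.00838) in place of 0.43 ± 0.20. Without MI+Cell Sheet replicate 3 the infarct value against sham was 0.44 (adjusted p = 0.0387). Sham replicate 5 was again the lowest sham library, at 23.5, 21.3 and 20.7 CPM. Remote cell sheet libraries held 29.4 to 56.6 CPM (median 34.8), a difference from MI of -0.39 ± 0.16 (adjusted p = 0.0960), and of -0.54 (adjusted p = 0.00323) without replicate 1, the highest of the 6.

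**Figure D5:**
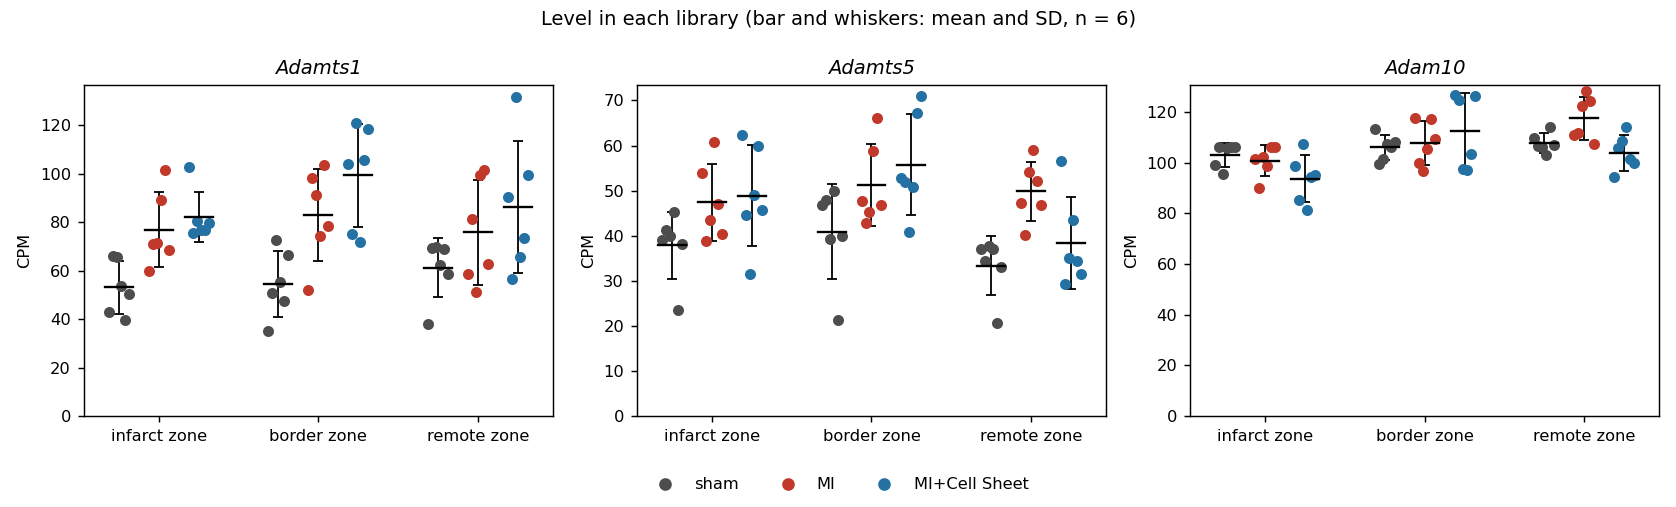
Level of Adamts1, Adamts5 and Adam10 in each library, in CPM on a linear axis from 0, by zone and treatment, with the mean and SD of 6 libraries. Group means lie within a ratio of 1.87 for Adamts1, 1.67 for Adamts5 and 1.25 for Adam10, and sham and MI points are apart for Adamts5 in the remote zone.

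The remote zone count changed most with 1 animal, MI+Cell Sheet replicate 1. Leaving out MI+Cell Sheet replicate 3 also added a call, that of Adamts12 given above. With all animals DESeq2 called 4 members there between the cell sheet and MI, Adam19 and Adamts12 higher and Adam10 and Adam17 lower. This count is not set against the share of all genes that DESeq2 called. Without MI+Cell Sheet replicate 1, edgeR called 7 members between the cell sheet and MI in the remote zone in place of 1. Adam19 was still higher, at 0.84 (adjusted p = 0.000406), and Adam8, Adam12, Adam17, Adamts2, Adamts4 and Adamts5 were lower, with log2 fold changes from -2.37 (Adam12) to -0.53 (Adam17). Without that animal 6450 of all genes were called there in place of 2623. Its remote library held 846 CPM of macrophage markers where the other 5 held 244 to 445 CPM, beside the myofibroblast level given above. The part of these markers in its protease levels was not tested.

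Within MI hearts, with the heart as a block, 4 members were higher in the infarct than in the remote zone by edgeR (18.3% of all genes, and 18.1% lower, 36.4% in all) and none lower. They were Adam8 by 2.10 ± 0.52 (adjusted p = 0.0184), Adam12 by 1.71 ± 0.42 (adjusted p = 0.0175), Adamts4 by 1.04 ± 0.18 (adjusted p = 0.00889) and Adamts2 by 0.71 ± 0.15 (adjusted p = 0.0111). The ranges of all 4 overlapped between the zones. Adam10 lay lower in the infarct zone without overlap, at -0.24 ± 0.09 (adjusted p = 0.0584 in edgeR) and -0.25 in DESeq2, which called it (adjusted p = 0.0206), beside 3.41% of all genes lower and 3.78% higher without overlap. Between border and remote zone edgeR called no member and no gene (0%). There 4 members had an unadjusted p under 0.05 (the same Adam8, Adam12, Adamts2 and Adamts4), as did 5943 genes. DESeq2 called 4 members there, a count not set against the share of all genes that it called. Between infarct and border zone no member was called in MI hearts (0%), with 1 member and 882 genes at an unadjusted p under 0.05 and none called by DESeq2.

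Within cell sheet hearts 5 members were higher in the infarct than in the remote zone (31.5% of all genes) and 1 was lower (31.4%). The rises were 5.26 ± 1.03 for Adam12, 3.65 ± 0.64 for Adam8, 2.38 ± 0.48 for Adamts4, 1.45 ± 0.25 for Adamts2 and 0.57 ± 0.14 for Adam17. The Adam12 rise was 5.99 without replicate 1. Adam19 was lower by -0.64 ± 0.13 (adjusted p = 0.00509), without overlap, as were 4.21% of all genes, while 4.88% were higher. From the border to the remote zone 7 members were higher in the border (29.2%) and Adam19 was lower there (27.2%). These 7 were the same 5 and Adamts5 (0.56 ± 0.18, adjusted p = 0.0308) and Adamts12 (0.70 ± 0.16, adjusted p = 0.00889). Between infarct and border zone no member was called (0%), with 1 member (Adam10) and 2213 genes at an unadjusted p under 0.05 and none of the members called by DESeq2.

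The difference between zones in the MI effect was tested as an interaction. Between infarct and remote zone it was called for 3 members by edgeR (13.6% of all genes were called larger in the infarct zone and 15.3% smaller, 28.9% in all): Adam8 by 2.45 ± 0.69 (adjusted p = 0.0176), Adamts2 as given above and Adamts4 by 0.89 ± 0.31 (adjusted p = 0.0453). For Adamts4 the adjusted p was 0.106 without sham replicate 5. Adamts5 had a difference of -0.26 (adjusted p = 0.0567), which DESeq2 called at -0.28 (adjusted p = 0.0430). In the other 5 interactions, those of the MI effect with the border zone and all those of the cell sheet effect, edgeR called no member and no gene (0%). For the MI effect, 4 members had an unadjusted p under 0.05 between border and remote zone and 1 between infarct and border zone, and DESeq2 called 1 and 0. For the cell sheet effect it was 7 members between infarct and remote zone, 4 between border and remote zone and 0 between infarct and border zone, and DESeq2 called 1, 1 and 0. These unadjusted and DESeq2 counts are not set against all genes under the same cut, so they show nothing particular to the members. Between infarct and remote zone the cell sheet effect on Adam12 differed by 3.50 ± 1.09 (adjusted p = 0.119), which DESeq2 called (adjusted p = 0.00242). Without MI+Cell Sheet replicate 1, edgeR called this difference between infarct and remote zone for Adam12 (4.23, adjusted p = 0.0184), Adamts2 (0.96, adjusted p = 0.0261) and Adamts4 (1.75, adjusted p = 0.0202), and between border and remote zone for Adamts2 (1.21, adjusted p = 0.0421).

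The ranking of the 9 group means differed between members, and all 80 pairs of neighbouring groups in these rankings overlapped in their ranges. Adam12 was highest in the border and infarct zone with the cell sheet (means 215 and 203 CPM), then in MI border and infarct (96.2 and 86.8 CPM). It was lower in the remote zone of MI and the cell sheet (29.0 and 23.8 CPM) and lowest in sham (1.88, 1.32 and 1.27 CPM). The cell sheet remote mean rested on replicate 1, at 115 CPM, and was 5.60 CPM over the other 5 libraries. Adamts2 and Adamts4 were highest in the infarct zone with the cell sheet (339 and 30.6 CPM) and lowest in the sham remote zone (93.5 and 3.92 CPM). Adam19 was highest in the remote zone with the cell sheet (301 CPM) and in sham (280 CPM) and lowest in MI border (148 CPM).

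Among the other ADAMs, 6 of 8 listed genes were tested in the infarct zone of MI against sham, and 2 were higher and 1 lower, beside 22.7% and 27.2% of all genes. Adam9 was higher by 0.74 ± 0.08 (adjusted p = 8.33e-05) and Adam15 by 0.69 ± 0.11 (adjusted p = 0.000532), both without overlap, and Adam11 was lower by -1.10 ± 0.36 (adjusted p = 0.0240). Of the other ADAMTS and ADAMTS-like genes, 10 of 18 tested were higher and none lower (median 1.13, all genes -0.02). Adamts16 rose from a mean of 0.0244 to 9.19 CPM, Adamts17 from 3.05 to 40.7 CPM and Adamts15 from 14.5 to 73.9 CPM, each without overlap and with an adjusted p of 2.88e-05. In the border zone, with the cell sheet against MI, 4 of 19 of this list were higher and none lower, beside 8.47% and 9.48% of all genes. Adamts7, which cleaves cartilage oligomeric matrix protein as Adamts12 does, was higher by 0.86 ± 0.12 (adjusted p = 0.000999) without overlap, Papln by 0.94 ± 0.23 (adjusted p = 0.0144) and Adamts9 by 0.78 ± 0.20 (adjusted p = 0.0167).

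Of 6 inhibitors, 3 rose and 1 fell in the MI infarct zone, where 22.7% of all genes were called higher and 27.2% lower. Timp2 rose by 1.26 ± 0.15 (adjusted p = 0.000103), Timp1 by 2.13 ± 0.60 (adjusted p = 0.0119), and Timp4 fell by 1.68 ± 0.57 (adjusted p = 0.0285). None of the 6 was called with the cell sheet against MI in the border zone, and none had an unadjusted p under 0.05. Of 12 tested maturation and trafficking partners, 8 rose and 1 fell in the MI infarct zone, beside the same 22.7% and 27.2% of all genes. Tspan17, a tetraspanin that binds Adam10, rose by 1.85 ± 0.23 (adjusted p = 0.000153), and the proprotein convertases Pcsk5 and Furin, which activate such precursors, rose by 1.70 ± 0.22 and 0.52 ± 0.12 (adjusted p = 0.000221 and 0.00442). Furin was the only 1 of the 12 called with the cell sheet in the border zone, higher by 0.35 ± 0.09 (adjusted p = 0.0219).

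Substrates moved as follows. Versican (Vcan), the 1 proteoglycan of 4 listed that was tested in MI against sham, rose from 86.7 to 265 CPM in the infarct zone (1.59 ± 0.30, adjusted p = 0.00166). With the cell sheet against MI in the border zone 2 were tested and neither was called, Vcan at 0.01 ± 0.27 (adjusted p = 0.992) and aggrecan (Acan) at 0.66 ± 0.89 (adjusted p = 0.651). Of 5 listed procollagen substrates of Adamts2, the 4 tested all rose in MI against sham in the infarct zone. Of all genes, 22.7% were called higher in that comparison and 27.2% lower. Col1a1 rose by 3.70 ± 0.33, Col1a2 by 3.10 ± 0.30 and Col5a1 by 2.52 ± 0.24. With the cell sheet against MI in the border zone none of the 4 was called, Col1a1 at 0.83 ± 0.36 (adjusted p = 0.129) and Col5a1 at 0.70 ± 0.26 (adjusted p = 0.0784). Of the proteins shed by Adam10 and Adam17, 7 of 18 tested rose and 2 fell in the MI infarct zone, a share near the 49.9% of all genes called there (22.7% higher, 27.2% lower). The tumour necrosis factor receptor Tnfrsf1a rose by 1.34 ± 0.19, the growth factor Nrg1 by 1.98 ± 0.33 and Hbegf, another growth factor, by 0.75 ± 0.13. With the cell sheet in the border zone 3 of 18 rose and 1 fell, beside 8.47% and 9.48% of all genes. The endothelial cadherin Cdh5 rose by 0.82 ± 0.15 (adjusted p = 0.00339) and Notch2 by 0.61 ± 0.16 (adjusted p = 0.0190), and the chemokine Cxcl16 fell by 0.77 ± 0.14 (adjusted p = 0.00391).

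The genes whose log2 CPM was most like that of a member, by Pearson correlation over the 54 libraries and among 13299 genes, are given as a description. The libraries share hearts, treatments and cell composition. For Adam12 they were Lox, the collagen cross-linking enzyme (r = 0.975), C1qtnf6 (0.970) and Slc44a1 (0.969). For Adamts2 they were Ltbp3 (0.985), Mxra8 (0.976) and Clec11a (0.974), for Adamts4 Plaur, the urokinase receptor (0.963), and for Adam8 Lilrb4 (0.972) and Clec7a (0.963), receptors of myeloid cells. Adam17 was most like Tpm3 (0.943), Adam19 like Nacc2 (0.926), Adamts5 like Twsg1 (0.846) and Adamts1 like Itga5 (0.790). The correlations of Adam10 were lower, with Xiap at 0.629. Between members, Adam12 ran with Adamts4 (r = 0.921) and Adamts2 (0.911), and Adam19 ran against Adam17 (-0.752) and Adam8 (-0.631).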

How the data were processed

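Poly(A) RNA of 54 left ventricular samples was sequenced, and the deposited tables hold the authors' raw read counts per gene, not normalized. The authors aligned reads to mRatBN7.2 with STAR and tested them with DESeq2. The counting tool and its strand setting are not given in the sources used here, so reads of overlapping and antisense genes cannot be told apart. Each table lists 40319 genes and 5 summary lines, which held 17.0% to 42.8% of a table's counts and entered neither the library sizes nor the tests. This share differed between groups. In the infarct zone it was 28.2% to 42.8% in sham and 17.0% to 27.5% in cell sheet libraries, without overlap. Its part in the comparisons with sham was not tested. Gene totals ran from 12699204 to 23397754.

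Groups came from the sample labels. Counts were tested in R 4.3.3 with edgeR 4.0.16 (TMM factors, filterByExpr, quasi-likelihood F test), 6 against 6 libraries within a zone, with p-values adjusted over all genes by Benjamini-Hochberg and called under 0.05. Zones, and differences of effects between zones, were tested with the animal as a block. The standard error was the log2 fold change divided by the root of F. Levels are CPM with TMM factors over all libraries. The code was tested on simulated data. All 135 pairs of replicates differed beyond sampling noise (chi-square per degree of freedom 7.97 to 539). Libraries of a heart are paired by design. Their deviations correlated over 0.1 in 38 of 54 pairs (-0.642 to 0.975), and 29 were highest for the same heart. The lowest correlation was 0.29 in sham, -0.642 in MI and -0.602 in cell sheet hearts.

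The members, the lists of related genes and the tests were chosen with earlier results of these data known. All 10 members are named, and from each list up to 3 genes with the lowest adjusted p in MI against sham in the infarct zone and in MI+Cell Sheet against MI in the border zone. Alternatives were DESeq2 1.42.0, library-size scaling, other filters on low counts, a fold change threshold, all 9 groups in a single fit, other blocks and leaving out animals. Genome coordinates of the files and human reads were not analysed here.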

Additional observations from a re-analysis of the deposited data

Results flagged for a closer look

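Among 90 groups of 6 libraries (10 members in 9 groups), 18 had a library whose gap to the nearest other was large for the group's range by Dixon's test. For independent, normally distributed values chance flags about 1 in 20 groups. These groups hold CPM of the same animals over genes and zones, so that rate is no measure of an excess here. Sham replicate 5 was the high library for Adam8 in the infarct (44.4 CPM), border (45.8 CPM) and remote zone (32.6 CPM), for Adam17 (142, 158 and 156 CPM) and for Adamts4 in the remote zone (8.34 CPM). It was the low library for Adamts5 in all 3 zones (23.5, 21.3 and 20.7 CPM) and for Adamts12 in the infarct zone (16.8 CPM). MI+Cell Sheet replicate 1 was the high library of the remote zone for Adam8 (24.2 CPM), Adam12 (115 CPM) and Adamts4 (24.5 CPM), and of the infarct zone for Adamts1 (103 CPM). The other flagged libraries were MI replicate 3 in the infarct zone for Adam19 (175 CPM), MI replicate 5 in the remote zone for Adamts4 (22.2 CPM) and sham replicate 1 in the remote zone for Adamts1 (38 CPM).

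The MI effect differed between the infarct and the remote zone, by the interaction test, for Adam8 (2.45 on the log2 scale), Adamts2 (0.67) and Adamts4 (0.89), in each case larger in the infarct zone.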

How the results depend on the processing

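Of 228 counts of called members under alternatives, 205 stayed within 1.5 times the reported count. A fold change above 1 on the log2 scale left 3, 3 and 3 members in MI against sham (infarct, border, remote zone), and 1 and 0 in MI+Cell Sheet against MI (border, remote). DESeq2 called 1, 4 and 1 members in MI+Cell Sheet against MI in the infarct and remote zone and against sham in the remote zone, 4 between border and remote zone of MI hearts, and 1 in each of 3 interactions (the MI effect, border against remote, and the cell sheet effect, infarct or border against remote). Library-size scaling gave 2 in MI+Cell Sheet against MI, remote zone, and 5 in the MI effect, infarct against remote. All 9 groups in a single fit gave 1 in MI+Cell Sheet against sham, remote zone. With no replicate block there were 3 between border and remote zone of MI hearts and 0 in the MI effect, infarct against remote. Leaving out animals gave 1 to 7 members in MI+Cell Sheet against MI, remote zone, 7 without MI+Cell Sheet replicate 1. Without that animal there were 3 and 1 in the cell sheet effect, infarct and border against remote. Apart from gene numbers given above, these counts are not set against all genes under the same setting.

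Replicate numbers did not pair animals of different treatments: 19 of 54 correlations were over 0.1 (-0.806 to 0.67), and 11 were highest for the same number. With the number as a replicate block, MI+Cell Sheet against MI had 1 member and 1214 genes called in the border zone in place of 2 and 2922, and 0 members and 2 genes in the remote zone in place of 1 and 2623.

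Of 1848 single values, 1733 kept direction and side of the threshold, 64 passed it, 13 lost it and 38 changed sign. None of those 38 was called in the reported fit. Under library-size scaling they were Adam10 in MI against sham (0.22) and MI+Cell Sheet against sham (0.13), Adam19 in the latter (0.13) and Adam17 in MI+Cell Sheet against MI (0.0095), all in the infarct zone, and Adamts12 in MI against sham, remote zone (0.079). The single fit gave -0.0107 for the Adamts4 log2 fold change, MI+Cell Sheet versus MI, border zone. The rest came from leaving out 1 animal, where values over all animals left out ranged as follows. In MI+Cell Sheet against MI they ran from -0.19 to 0.30 for Adam8, -0.0521 to 0.0426 for Adam17 and -0.0451 to 0.14 for Adamts5 in the infarct zone and from -0.20 to 0.28 for Adamts4 in the border zone. In MI against sham they ran from -0.0008 to 0.0636 for Adam10 in the border zone and from -0.18 to 0.0111 for Adamts12 in the remote zone. In MI+Cell Sheet against sham they ran from -0.0361 to 0.11 for Adam19 in the border zone, and from -1.91 to 1.48 for Adam8 and -0.23 to 0.10 for Adam17 in the remote zone. The cause of these changes was not tested. Depth limits most the members near 1 CPM in sham hearts, Adam8 and Adam12.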
